A study of Homo sapiens with 8 samples.

Results

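The positions described here lie in non-coding RNA: long non-coding RNAs (lncRNAs), antisense and clone-named transcripts, pseudogenes and small RNA genes. They were taken from a list of single-base positions of N1-methyladenosine (m1A), a methylated adenosine. A position was kept when every transcript named for it was annotated as ncRNA, which held for 366 of 9962 listed positions. After removal of 3 mitochondrial positions and of 9 positions given on both strands, 354 positions in 256 genes remained. A further 235 positions had ncRNA for some transcripts only and coding or untranslated annotation for others, and were not counted.

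The reads came from neuroblastoma cells transfected with small interfering RNA against TRMT6 (siTRMT6) or with a control. Polyadenylated RNA was fragmented and immunoprecipitated with an antibody to m1A, and each condition had 2 m1A libraries and 2 input libraries per the labels, with input values not used here. The sample titles name the cells SK-N-BE, whereas the design and the cell line label name SK-N-AS. The names of the 4 count columns, which give condition and number only, were taken to mean the m1A libraries. No position of TRMT6 is in the list, so its silencing could not be checked in these reads.

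m1A carries a positive charge and blocks the base-pairing face of adenosine, and is placed on position 58 of transfer RNA by TRMT6 together with its catalytic partner TRMT61A. The same enzyme also methylates some other RNAs at stems that resemble the T-loop of a transfer RNA. Many lncRNAs stay in the nucleus, where MALAT1 and NEAT1 associate with speckles and paraspeckles, while the host RNAs of small nucleolar RNAs (snoRNAs) are spliced and largely exported or degraded.

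Sequence around a listed base could be read for 32 of the 354 positions, those inside a miRNA hairpin or a promoter window (250 bases before to 50 after a gene start) held by RefSeq for GRCh38.p14. All 32 were A on the plus strand of the genome. For 18 of them the annotated gene was on the plus strand, so that the listed base was also A in its RNA. For the other 14 the gene was on the minus strand and the listed base was U in its RNA. The same held over the whole table, where 517 listed nuclear positions were covered and all 517 were A on the plus strand, 343 of them in minus-strand genes. How strand was used in counting is not given in the sources used here, and the part it plays in these letters was not tested. For a position of a minus-strand gene, the reads can therefore not be assigned to the named RNA or to a transcript of the opposite strand.

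A first group of sequences, written in the direction of the named gene with each listed base in capitals (T standing for U), shows listed bases of different libraries lying close to each other or to a neighbouring gene. NBAT1, named CASC14 in the table, and CASC15 are neighbouring lncRNAs of a neuroblastoma risk locus on chromosome 6, transcribed from opposite strands. TMEM44-AS1 and SGOL1-AS1 (SGO1-AS1 in RefSeq) are antisense RNAs, and RPPH1 is the RNA of ribonuclease P, which trims the ends of transfer RNA precursors.
NBAT1, chr6:22147148-22147193, minus strand: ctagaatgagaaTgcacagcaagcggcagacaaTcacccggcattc
CASC15, chr6:22147211-22147235, plus strand: ataacccagcacAtggatagaggaa
TMEM44-AS1, chr3:194584251-194584278, plus strand: gaccctgaggagAggAcgagaagacccg
SGOL1-AS1, chr3:20186309-20186337, plus strand: cgacgtcacgtgAcgcAcattcgctcaag
RPPH1, chr14:20343438-20343491, minus strand: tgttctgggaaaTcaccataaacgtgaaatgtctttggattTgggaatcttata

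The A bases of TMEM44-AS1 were 3 nt apart, with 7 reads in siTRMT6 1 at the second and 8 reads in control 2 at the first. In SGOL1-AS1 they were 4 nt apart, with 7 reads in siTRMT6 1 and 6 reads in control 2. The 2 bases of RPPH1 were 29 nt apart, with 9 reads in siTRMT6 1 and 11 reads in control 2. In each of these genes, neighbouring bases were thus listed in opposite conditions with nearly equal reads. The RPPH1 bases lay outside the RefSeq span of that gene, within the promoter window of PARP2. CASC15 had 9 reads in siTRMT6 1 and none listed elsewhere, and NBAT1, whose bases lie 42 and 63 nt from it, had 7 reads in control 1 and 8 in control 2.

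Printed next are 2 of the miRNA hairpins that held a listed base, chosen after their values were seen. The capital marks that base, which was U in MIR6728 and A in MIR4665.
MIR6728, chr1:8866502-8866590, minus strand: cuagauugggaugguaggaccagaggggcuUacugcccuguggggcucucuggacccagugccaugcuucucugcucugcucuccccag
MIR4665, chr9:6007826-6007904, plus strand: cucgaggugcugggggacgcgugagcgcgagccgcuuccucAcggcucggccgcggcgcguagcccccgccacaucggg

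The listed base was base 31 of 89 in MIR6728 and base 42 of 79 in MIR4665, counted from the 5′ end. MIR6728 had 12 reads, all in siTRMT6 2, and MIR4665 had 8 reads, all in control 2. Each of these hairpins lies within a coding gene, ENO1 for MIR6728 and BRD10 for MIR4665, so the reads may belong to the precursor of the host gene. The T-loop motif GTTCNANNC was looked for on both strands. Read on the plus strand, no listed base was the A of that motif, neither among 31 non-coding positions with enough sequence on both sides nor among 501 such positions of the whole table. The motif was somewhere in 2 of 31 promoter windows with a non-coding position, and in 7.48% of all 35116 promoter windows. A missing match says only that these letters are not in this window.

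The libraries differed widely in how many non-coding positions they listed, with 135 in siTRMT6 1 and 50 in siTRMT6 2, against 30 in control 1 and 148 in control 2. As a share of all listed positions, these were 3.74% (95% Wilson interval 3.17 to 4.41%) and 3.54% (2.69 to 4.63%) in the siTRMT6 libraries, against 3.66% (2.58 to 5.18%) and 3.47% (2.96 to 4.06%) in the control libraries. The shares of all 4 libraries overlapped in their intervals, which cover counting error only. The mean share of positions was 3.64% ± 0.146 with siTRMT6 and 3.57% ± 0.139 in control (SD, n = 2 each), a difference of 0.0745 percentage points (exact permutation test, two-sided, p = 0.667). Non-coding positions took 3.65% and 4.53% of the listed reads in the siTRMT6 libraries, against 4.37% and 3.53% in the control libraries. Their mean share of reads was 4.09% ± 0.616 with siTRMT6 and 3.95% ± 0.594 in control (SD, n = 2 each; exact permutation test, two-sided, p = 0.667). The smallest p that 2 against 2 libraries allow is 0.333, so neither test could pass 0.05.

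Most listed values were small. The 354 positions held 2115 reads with siTRMT6 and 2001 reads in control, with a median of 9 reads per position and a range of 5 to 63. Within a library, the mean of log2 reads per position differed between non-coding and other listed positions by -0.09 in siTRMT6 1, 0.22 in siTRMT6 2, 0.11 in control 1 and -0.05 in control 2. The mean difference of 0.05 did not stand apart from the spread between libraries (exact sign-flip permutation, two-sided, p = 0.625, smallest possible 0.125). Positions sat earlier in their transcripts than the other listed ones, at a median of base 485.5 against base 866, and 9.60% against 4.11% lay within the first 50 bases. No length of the transcripts was used, so this is a description of the listed coordinates only.

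Reads of siTRMT6 and control did not meet at any non-coding position: 0 of 354 had reads of both conditions, and 14 of all 9962 positions did (0.141%). Reads in a single library were listed at 345 positions, and 9 positions had reads in both libraries of 1 condition. In the authors' deposited table, all 354 positions have an adjusted p below 0.05, the largest being 0.0376. The authors' deposited table gives 179 of them (50.6%) as higher with siTRMT6, where it gives 49.6% of all positions as higher. It gives the other 175 (49.4%) as lower, where the authors' deposited table gives 50.4% of all positions as lower. Those shares are near the background and show no lean of non-coding RNA to either side. In the authors' deposited table, the same pair of reads summed by condition always has the same p-value, over all 126 distinct pairs, so these p-values take no account of the spread between libraries. The table also holds no position with an unadjusted p above 0.0478.

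With that spread in the model, no non-coding position could be called. The edgeR quasi-likelihood test with Benjamini-Hochberg adjustment was fitted to all positions, of which 34 passed the filter on low counts and 22 (64.7%) had an adjusted p below 0.05. DESeq2 called 0 of these 34. The table holds only positions with an authors' unadjusted p of at most 0.0478. Shares of its positions, genes or regions with a low p are therefore not rates for unselected ones. None of the 354 non-coding positions passed the filter, so none was tested. Summed over each gene, 928 genes were tested and 0% were called, with 123 (13.3%) at an unadjusted p below 0.05. Of the 256 genes with a non-coding position 20 were tested, none was called and 3 (15.0%) had an unadjusted p below 0.05, a share close to that of all genes. DESeq2 called 1 gene of the table, with 44 at an unadjusted p below 0.05, and none with a non-coding position. The labels do not say whether replicates are separate cultures, so these p-values measure only the spread between the libraries, which may be technical.

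At 9 positions the same base was listed in both libraries of a condition. EEF1A1P6, a processed pseudogene of the translation elongation factor eEF1A1, had 11 and 9 reads at position 22511314 of chromosome 7 in siTRMT6 1 and 2, with 0 listed in both control libraries. BX470102.3, at position 153535009 of chromosome 1 inside the span of the calcium-binding protein gene S100A6, had 12 and 7 reads in siTRMT6 1 and 2, with 0 in both control libraries. CTB-176F20.3, at position 23324354 of chromosome 19 inside the span of the zinc-finger gene ZNF91, had 12 and 6 reads in siTRMT6 1 and 2, again with 0 in both control libraries. Since no non-coding position held reads of both conditions, the gap between conditions at these bases is fixed by the choice of positions. Fewer reads were listed at the bases of RP11-671J11.4 (5 and 3), RP11-529H20.3 (4 and 3) and AC011737.2 (4 and 5), all in siTRMT6 1 and 2. The base of RP11-529H20.3 lay in the RefSeq span of PTMAP7 and that of AC011737.2 in RPL12P16, both pseudogenes by their symbols. RP11-671J11.4 also had 5 reads in control 1 at 34556936 of chromosome 14, next to the siTRMT6 base at 34556913.

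In the opposite direction, RP11-673C5.1 had 0 reads in both siTRMT6 libraries and 9 and 9 reads in control 1 and 2, at position 71165080 of chromosome 15. That base lay inside the span of THSD4 and also in that of HMGB1P6, a pseudogene by its symbol. EIF4BP6, a pseudogene of the initiation factor eIF4B, had 0 reads with siTRMT6 and 5 and 7 reads in control at position 104668562 of chromosome 7, while siTRMT6 1 had 6 reads at the nearby base 104668568. RPL7P9, a pseudogene of a ribosomal protein gene, had 0 reads with siTRMT6 and 5 and 6 reads in control. So 6 of the 9 positions had siTRMT6 reads and 3 had control reads. Such a split was not counted over the whole table, so no lean is read from it. A deposited 0 may mean no reads or no call, which is not known, and no fold is given against such a group.

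**Figure D1:**
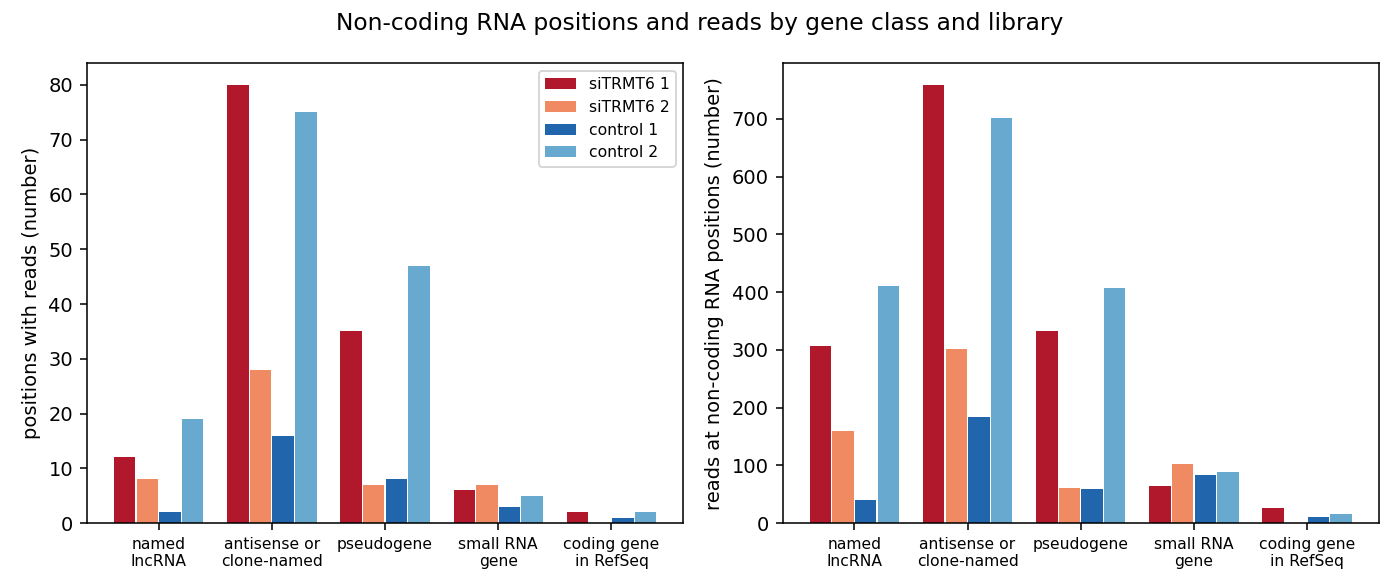
Bars show the number of non-coding positions with reads (left) and the number of reads at them (right) in each class of gene and each library, siTRMT6 in red and control in blue. In every class but the small RNA genes, siTRMT6 1 and control 2 hold more positions than siTRMT6 2 and control 1, as they do in the whole table.

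Sorted first by name and then by RefSeq type, 193 positions fell in 151 antisense, intergenic or clone-named genes, 94 in 68 pseudogenes, 41 in 20 named lncRNAs and 21 in 15 small RNA genes. The other 5 lay in HNRNPA1P48 and MSL3P1, which RefSeq lists as coding genes under the symbols HNRNPA1L3 and MSL3B. RefSeq also types MMP24-AS1, LINC00634 and NCBP2-AS2 as coding (4 positions in all), which their names placed among the antisense and intergenic genes. Clone-named genes inside the span of a pseudogene, such as RP11-673C5.1 in HMGB1P6, stayed among the clone-named genes. Antisense and clone-named genes held 1060 reads with siTRMT6 and 884 reads in control, with 103 positions listed with siTRMT6 and 90 in control. Pseudogenes held 394 reads with siTRMT6 and 468 in control, at 41 and 53 positions. Named lncRNAs held 467 reads with siTRMT6 and 450 in control, and small RNA genes held 168 and 172. Between classes, named lncRNAs had the highest median, 14 reads per position, against 9 for listed positions outside non-coding RNA, 8 for antisense and clone-named genes and 7 for pseudogenes. In the plot of positions and reads by class, siTRMT6 1 stood above siTRMT6 2 and control 2 above control 1 for antisense and clone-named genes, named lncRNAs and pseudogenes, whereas the small RNA genes had 6 and 7 positions in siTRMT6 1 and 2, against 3 and 5 in control 1 and 2.

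Among the 256 genes, 99 had siTRMT6 reads only, 109 had control reads only and 48 had reads of both conditions. Reads in 3 libraries were listed for 14 genes, and in all 4 libraries for none. A single listed position was all that 193 genes had, which leaves no room for both conditions where no position holds both. Of all 4606 listed genes, 39.1% had reads of both conditions, against 18.8% of the 256. Among genes with 2 or more positions the share was 48 of 63 (76.2%), near the 76.3% of all such genes in the table.

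**Figure D2:**
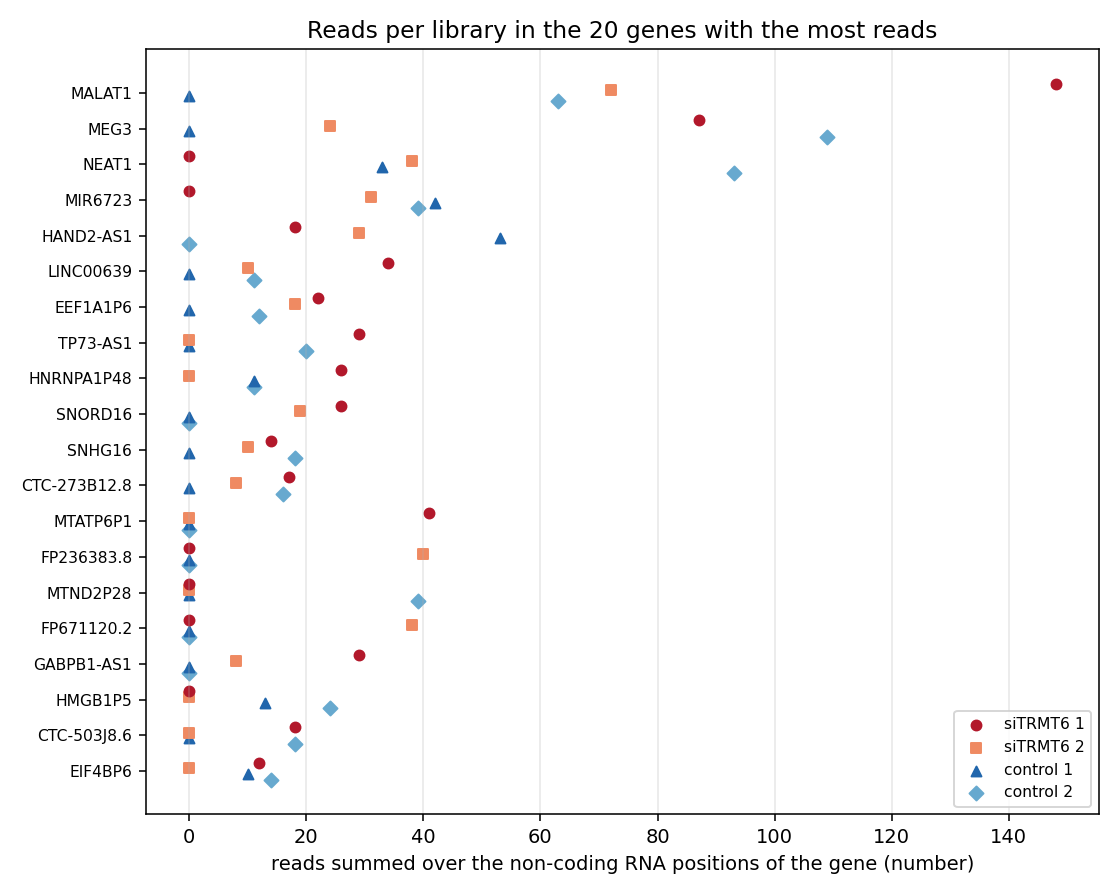
Each row is a gene among the 20 with the most reads, and each symbol gives the reads of 1 library summed over the non-coding positions of that gene. MALAT1 reaches 148 reads in siTRMT6 1, and every gene shown is listed at 0 in at least 1 library.

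MALAT1 and NEAT1, neighbours on chromosome 11, had 6 positions each and were 2 of the 3 genes with the most reads. MALAT1, an abundant RNA of nuclear speckles, had 148 and 72 reads in siTRMT6 1 and 2, against 0 and 63 reads in control 1 and 2. Both siTRMT6 libraries lay above both control libraries. Its log2 fold change was 2.25 (SE 2.19), with an edgeR adjusted p of 0.99994, so the difference was within the spread between libraries. NEAT1, the scaffold of paraspeckles, had 0 and 38 reads in siTRMT6 1 and 2, against 33 and 93 reads in control 1 and 2. Here the conditions overlapped in unscaled reads, since siTRMT6 2 lay above control 1, and the log2 fold change was -0.95 (SE 2.36; edgeR adjusted p = 0.99994). The library siTRMT6 1 thus held the most MALAT1 reads and no NEAT1 reads.

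Along MALAT1, siTRMT6 1 had 48 reads at position 65499261, 55 at 65500873 and 45 at 65505221, which is 1295 nt before the RefSeq end of the gene. In siTRMT6 2 there were 35 reads at 65499797 and 37 at 65500777, and control 2 had 63 reads at 65500804. Positions of 3 libraries therefore met within 96 nt, with 92 reads from siTRMT6 and 63 from control. NEAT1 had siTRMT6 2 reads at 65423977 and 65425035, 19 at each, while control 2 had 38 at 65424100, 38 at 65425070 and 17 at 65444328, and control 1 had 33 at 65423508. The positions of NEAT1 fell near both ends of its RefSeq span, which runs from base 65422798 to base 65445540.

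**Figure D3:**
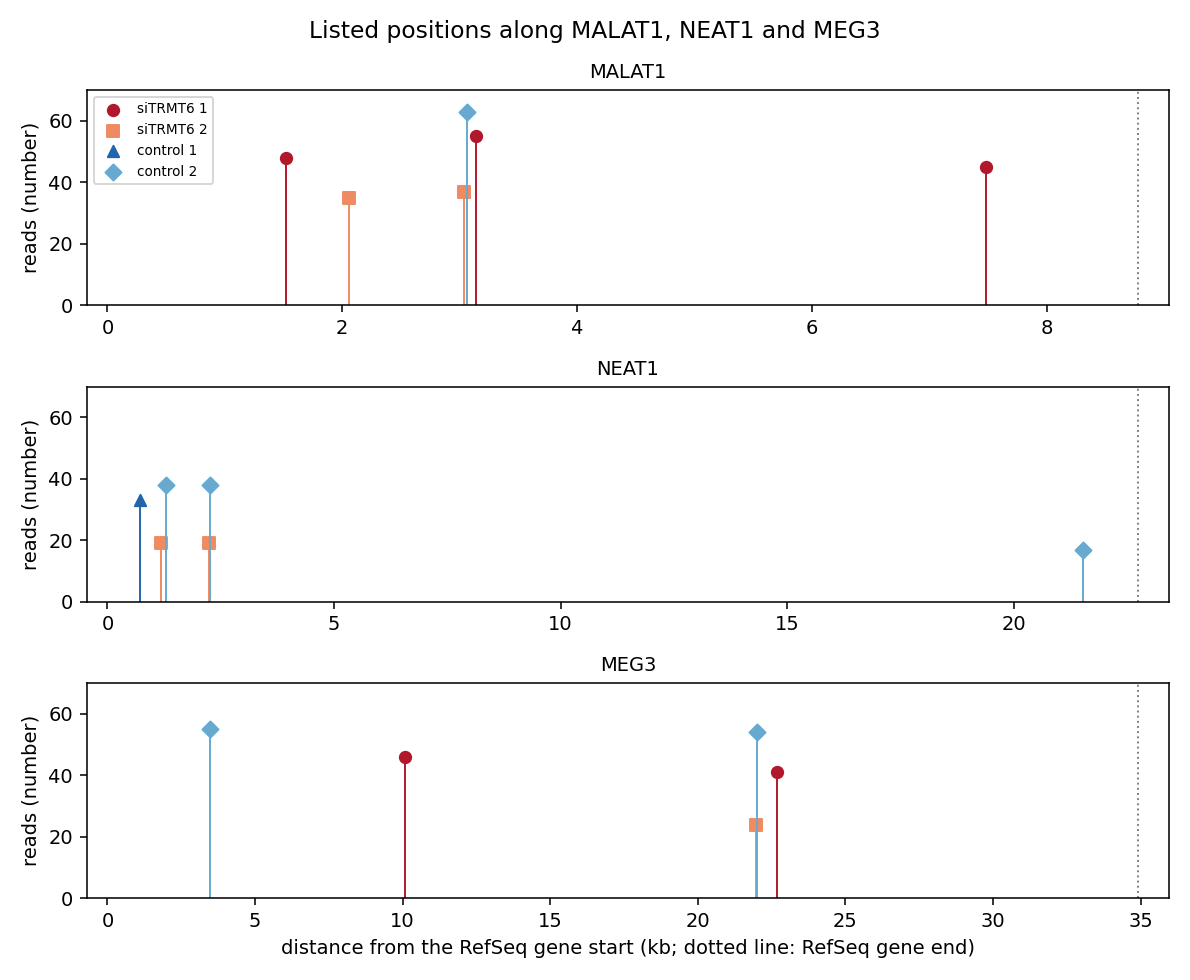
Stems mark the listed positions of MALAT1, NEAT1 and MEG3 by distance from the RefSeq gene start in kb, with the reads of each library as the height. No position is listed in 2 libraries, while positions of siTRMT6 and control libraries stand close together near 3 kb in MALAT1, near 1 and 2 kb in NEAT1 and near 22 kb in MEG3.

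Imprinted lncRNAs were represented by 3 of 7 listed symbols, with 3 positions of siTRMT6 and 5 of control. MEG3, a maternally expressed RNA of chromosome 14, had 87 and 24 reads in siTRMT6 1 and 2, against 0 and 109 in control 1 and 2, at 5 positions. The control values lay on both sides of the siTRMT6 values, and the log2 fold change was 0.36 (SE 2.29; edgeR adjusted p = 0.99994). It turned to -0.60 without control 1 and to -0.35 without siTRMT6 1, and without control 2 no control read was left. Its neighbouring bases 100848088 and 100848103 held 24 reads in siTRMT6 2 and 54 reads in control 2. SNHG14, the long host RNA of the Prader-Willi snoRNA cluster, had 0 reads in both siTRMT6 libraries, against 0 and 21 reads in control 1 and 2. SNHG23 (MEG8 in RefSeq), from the MEG3 locus, had 0 reads with siTRMT6 and 9 reads in control 2.

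HAND2-AS1 is transcribed next to HAND2, which encodes a transcription factor of the sympathetic lineage from which neuroblastoma arises. It had 18 and 29 reads in siTRMT6 1 and 2, against 53 and 0 reads in control 1 and 2, so that the control libraries held both the highest and the lowest value. Its log2 fold change was -0.22 (SE 2.48; edgeR adjusted p = 0.99994), and it turned to 0.45 without siTRMT6 1 and to 2.24 with the replicate block, while without control 1 no control read was left. The 29 reads of siTRMT6 2 and the 53 reads of control 1 lay 11 nt apart, at 173527490 and 173527479 of chromosome 4. Both bases lay inside the RefSeq span of HAND2 and outside that of HAND2-AS1, so these reads may belong to HAND2. HAND2 itself had 1 listed position, with 29 reads in siTRMT6 2 and 56 in control 2.

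Further neuroblastoma and neuronal lncRNAs had few reads. Of 22 symbols 6 had a non-coding position, with 4 positions of siTRMT6 and 5 of control. MIAT, a nuclear RNA of neurons and retina, had 16 reads in siTRMT6 1 and 0 in siTRMT6 2, control 1 and control 2. NORAD (LINC00657), which sequesters Pumilio proteins, was listed at 0 in both siTRMT6 libraries and had 20 reads in control 2. LINC00925 (MIR9-3HG), the host RNA of a neuronal miRNA, was likewise at 0 with siTRMT6 and had 11 reads in control 2. Each of these rests on 1 library. Outside non-coding RNA, 8 of 10 noradrenergic neuroblastoma markers had listed positions, with 271 and 265 reads in siTRMT6 1 and 2, against 123 and 313 in control 1 and 2. Of 7 mesenchymal markers 2 had listed positions, with 21 and 11 reads in siTRMT6 1 and 2, against 25 and 12 in control 1 and 2.

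Host RNAs of snoRNAs, which carry the guide RNAs of ribosomal RNA modification in their introns, had 16 positions in 10 genes, 8 of siTRMT6 and 8 of control. SNHG16 had 14 and 10 reads in siTRMT6 1 and 2, against 0 and 18 in control 1 and 2, with an edgeR adjusted p of 0.99994 and a log2 fold change of 0.94 that turned to -0.03 without control 1. SNHG7 had 0 and 10 reads in siTRMT6 1 and 2, against 0 and 19 in control 1 and 2, at positions 37 nt apart. ZFAS1 had 11 reads in siTRMT6 1 and 10 in control 2, and DANCR had 6 in each of these libraries, at positions 12 nt apart. These 4 genes had reads of both conditions, and their library values overlapped. With siTRMT6 reads only were SNHG5 (8 reads), EPB41L4A-AS1 (7) and LRRC75A-AS1, SNHG29 in RefSeq (11), each in siTRMT6 1. With control reads only were SNHG14, SNHG15 (10) and SNHG8 (10), each in control 2.

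Other antisense and intergenic RNAs that ranked high by reads had overlapping conditions in reads not scaled to library totals. Listed totals were 40771 and 13812 in siTRMT6 1 and 2, against 8655 and 46007 in control 1 and 2. The order of the libraries can therefore change with scaling. LINC00639 had 34 and 10 reads in siTRMT6 1 and 2, against 0 and 11 in control 1 and 2 (log2 2.29; edgeR adjusted p = 0.99994). TP73-AS1, antisense to the p53 relative TP73, had 29 and 0 reads in siTRMT6 1 and 2, against 0 and 20 in control 1 and 2. CTC-273B12.8 had 17 and 8 reads in siTRMT6 1 and 2, against 0 and 16 in control 1 and 2. GABPB1-AS1, antisense to a subunit gene of the transcription factor GABP, was named after its values were seen, as 1 of the 3 genes with an unadjusted p below 0.05. It had 29 and 8 reads in siTRMT6 1 and 2 with 0 in both control libraries, without overlap, and an edgeR adjusted p of 0.374. GABPB1-AS1 passed the filter on low counts through siTRMT6 alone, so this gap and its p are not independent of that choice.

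Small RNA genes gave positions whose reads may belong to the host gene, since 12 of 21 (57.1%) lay in the span of a coding gene. The 12 include the 3 positions of MIR6723, in the span of LOC102724250. SNORD16, a box C/D snoRNA of an RPL4 intron, had 26 and 19 reads in siTRMT6 1 and 2, at bases 5 nt apart, and 0 in both control libraries. Both siTRMT6 libraries thus lay above the control libraries, with an edgeR adjusted p of 0.374, and RPL4 itself had no listed position. SNORD16 passed the filter on low counts through siTRMT6 alone, so this gap and its p are not independent of that choice. SNORA10, a box H/ACA snoRNA inside the RPS2 gene, had 0 reads in both siTRMT6 libraries and 33 reads in control 1, while RPS2 had 23 reads in siTRMT6 2 and 34 in control 2. SNORD3B-1, a gene of the U3 snoRNA that takes part in processing the ribosomal precursor, had 8 and 6 reads in siTRMT6 1 and 2 and 0 in control. SNORD3A, another U3 gene with a closely similar sequence, had 7 reads in siTRMT6 2 and 0 in control, and reads of these genes may be shared between them. Only SNORD16 and SNORD3B-1 of the 11 genes in the small-RNA list had reads in both libraries of a condition.

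Among small RNAs of other kinds, SCARNA2, which guides modification of spliceosomal RNA, had 10 reads in siTRMT6 1 and 10 in control 2. RNU1-123P, a U1 pseudogene, had 7 reads in siTRMT6 1 and 9 in control 2. RN7SK, the RNA that holds the elongation factor P-TEFb inactive, had 10 reads in siTRMT6 2 and 0 in both control libraries. None of these 3 had reads in both libraries of a condition. SCARNA12, inside PHB2, was at 0 with siTRMT6 and had 20 reads in control 2, and SCARNA18 was at 0 with siTRMT6 and had 9 in control 1. The base listed for SCARNA18 lay outside its RefSeq span, in the spans of SCARNA17 and SNHG22. SNORD17, inside SNX5, had 6 reads in siTRMT6 1 and 0 in control.

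A pair of clone-named genes lay within the ribosomal RNA precursor. FP671120.2 had 38 reads at position 8208080 of chromosome 21, base 2093 of the 13315 bases of RNA45SN2. FP236383.8 had 40 reads at position 8391167, base 2133 of the 13309 bases of RNA45SN3. All reads of both were in siTRMT6 2, with 0 in siTRMT6 1 and in both control libraries. These precursor genes are near-identical copies, so the counting could split or repeat the same reads between them.

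Nuclear copies of mitochondrial DNA on chromosome 1 gave other high values, and reads of mitochondrial transcripts could be counted there. MIR6723, whose positions lay in the pseudogene MTCO1P12, had 0 and 31 reads in siTRMT6 1 and 2, against 42 and 39 reads in control 1 and 2. Its 3 positions spread over 981 nt, and its symbol matched no RefSeq gene. It was placed among the small RNA genes by its name alone, with 112 of the 340 reads of that class. In reads not scaled to library totals, both control libraries lay above both siTRMT6 libraries. That order did not hold as a share of listed reads. The 31 of 13812 reads in siTRMT6 2 were a larger share than the 39 of 46007 in control 2. They were a smaller share than the 42 of 8655 in control 1. For MIR6723 the edgeR adjusted p was 0.99994, and the log2 fold change of -0.81 turned to 0.16 without siTRMT6 1. MTATP6P1 had 41 reads in siTRMT6 1 only, and MTND2P28 had 39 reads in control 2 only, both named after their values were seen. The mitochondrial genes MT-CO1, MT-ATP6 and MT-ND2 that match these copies had no listed position.

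Processed pseudogenes share most of their sequence with a parent gene, so reads may be placed at either. The 68 pseudogenes here were of any kind, processed or not. A parent was taken from the symbol alone, by leaving off the ending P and number. For 32 of the 68, that parent also had a listed position outside the non-coding set. EEF1A1P6 had 22 and 18 reads in siTRMT6 1 and 2, against 0 and 12 in control 1 and 2, over 4 positions (log2 2.26; edgeR adjusted p = 0.99994). Its parent EEF1A1 had 30 reads in siTRMT6 1 and 0 in both control libraries. HMGB1P5, a pseudogene of a chromatin protein gene, had 0 reads in both siTRMT6 libraries, against 13 and 24 in control 1 and 2, with an edgeR adjusted p of 0.374. HMGB1P5 passed the filter on low counts through control alone, so this gap and its p are not independent of that choice. Its parent HMGB1 went the other way, with 19 and 24 reads in siTRMT6 1 and 2 and 0 in both control libraries. EIF4BP6 had 12 and 0 reads in siTRMT6 1 and 2, against 10 and 14 in control 1 and 2, while EIF4B had 46 and 20, against 0 and 55. Whether pseudogene and parent exchanged reads was not tested.

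Coding overlap was not confined to small RNAs: 154 of the 354 positions (43.5%) lay in the RefSeq span of a coding gene on either strand. These were 105 of 193 positions in antisense and clone-named genes, 32 of 94 in pseudogenes and 5 of 41 in named lncRNAs. MALAT1, NEAT1 and MEG3 overlapped no coding gene. The HNRNPA1-like gene HNRNPA1P48 also lay outside any coding span but its own, and had 26 and 0 reads in siTRMT6 1 and 2, against 11 and 11 in control 1 and 2 (log2 -0.12; edgeR adjusted p = 0.99994). That log2 value turned to 0.24 with equal library sizes, to 0.40 without control 1 and to 0.98 without siTRMT6 2.

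**Figure D4:**
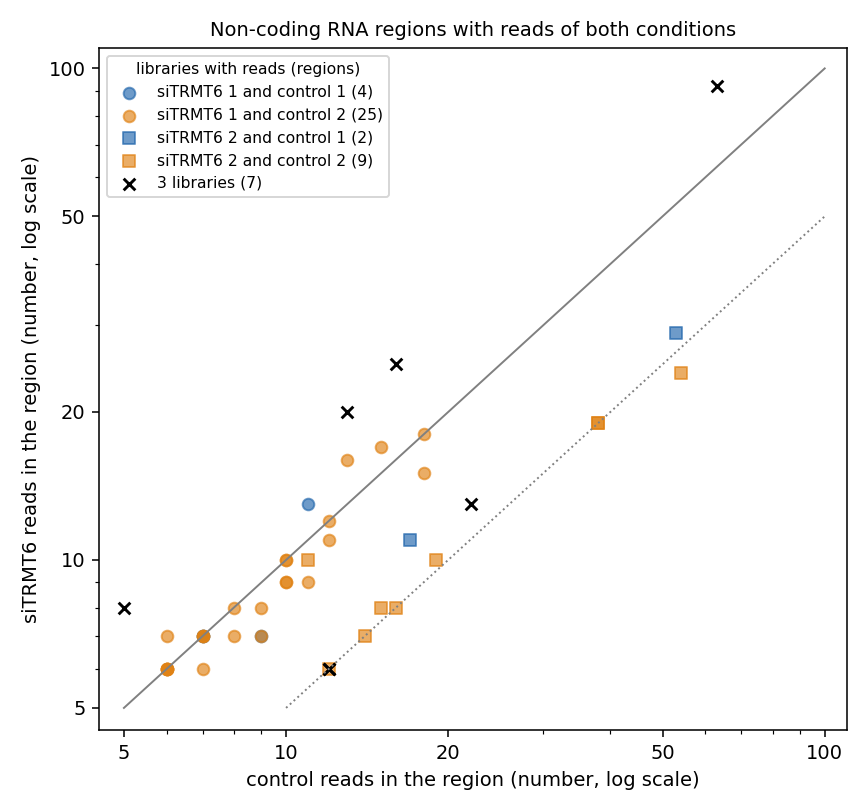
Points are the 47 non-coding regions with reads of both conditions, siTRMT6 reads on the vertical and control reads on the horizontal log axis, marked by the libraries that gave reads. The solid line marks equal reads and the dotted line marks siTRMT6 at 0.5 of control. Points of siTRMT6 2 with control 2 lie below the solid line and those of siTRMT6 1 with control 2 lie along it.

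Since different libraries were often listed at neighbouring bases, positions of a gene with gaps of at most 200 nt were joined into regions. Joining gave 293 non-coding regions, of which 47 had reads of both conditions. These were 27.5% of the 171 regions with siTRMT6 reads and 27.8% of the 169 with control reads, against 29.9% and 28.2% for the other listed regions. The fit called 0% of 486 regions, with 125 (25.7%) at an unadjusted p below 0.05, and 3 of the 13 non-coding regions tested had such a p. Those were MIR6723 from base 632254 to 632282 (edgeR adjusted p = 0.0935), GABPB1-AS1 (0.0583) and SNORD16 (0.0623). Each of these regions had reads of 1 condition only and passed the filter on low counts through it. Their p-values are therefore not independent of that choice. The MIR6723 region leaves out the 31 reads of siTRMT6 2 at base 631301 of that gene.

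In the 47 regions, the log2 ratio of siTRMT6 to control reads, each scaled to all listed reads of its condition, had a median of -0.12 and a range of -1.17 to 0.68, against a median of -0.15 over the other listed regions. More siTRMT6 than control reads were counted in 8 regions (17%), equal reads in 15 and fewer in 24 (51.1%), against 26.5% with more and 57.8% with fewer over 1314 other listed regions. The 8 regions with the most reads held 92 reads with siTRMT6 and 63 in control at MALAT1, 29 and 53 at HAND2-AS1, 24 and 54 at MEG3, and 19 and 38 at each of 2 places in NEAT1. At CTC-273B12.8 the region held 25 reads with siTRMT6 and 16 in control, at CTC-503J8.6 it held 18 and 18, and at HNRNPA1P48 it held 13 and 22.

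Which libraries were compared went with the ratio of siTRMT6 to control reads, here not scaled to library totals. Listed totals were 13812 in siTRMT6 2 and 46007 in control 2. A ratio below 1 between these libraries is therefore not a lower share of the listed reads by itself. The 25 regions with reads from siTRMT6 1 and control 2 had a median ratio of 1 and a range of 0.778 to 1.23, with 13 ratios of exactly 1. All 9 regions with reads from siTRMT6 2 and control 2 had a ratio below 1, with a median of 0.5, and so did all 172 such regions elsewhere in the table, with a median of 0.6. The 4 regions of siTRMT6 1 with control 1 had a median of 1, and the 2 of siTRMT6 2 with control 1 had a median of 0.597. The lower values at NEAT1 and MEG3, in reads not scaled by library, both come from siTRMT6 2 set against control 2. The share of the library pair in them was not tested.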

How the data were processed

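The submitters' processing notes name FastQC 0.11.3, STAR and the build hg38. How positions were called and reads counted, and whether strand was used, is not stated there. Per the file headers, the authors gave 4 columns of counts per position, their log2 fold change and their p-value, raw and adjusted. The libraries held 40771 and 13812 listed reads with siTRMT6 and 8655 and 46007 in control, which is not their sequencing depth. Where libraries are said to overlap or to lie above others, reads were not scaled to these totals. All deposited unadjusted p-values lie below 0.05, and 1 adjusted one does not.

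Each position was counted once, given here counting from 1, and joined by symbol or synonym to RefSeq (GRCh38.p14), which matched 152 of 256 genes. Counts of the whole table were fitted with edgeR 4.0.16 in R 4.3.3 (TMM, filterByExpr with minimum count 10, quasi-likelihood test, Benjamini-Hochberg at 0.05), after it was tested on simulated data. The simulated gene counts had a dispersion, a measure of spread between libraries, of 0.05. The fits here gave 2.55 for genes and 4.53 for regions, so the simulation does not show how the test performs on these data. TMM found few positions shared between libraries and gave warnings. DESeq2 1.42.0, other scalings, no filter, other joining distances, a replicate block and leaving out each library were alternatives. Genes were named by rule: those called, positions in 2 or more libraries, the 6 genes with the most reads in each of 3 classes (antisense or clone-named, coding in RefSeq, all others), the 8 top regions and listed genes. The members and lists were chosen with earlier results of these data known. Input libraries entered no fit. Reads without molecular identifiers are not independent molecules. A further miRNA hairpin is not reported here.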

Additional observations from a re-analysis of the deposited data

How the results depend on the processing

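The share of listed reads at non-coding RNA, siTRMT6 minus control, was 0.142 percentage points and turned to -0.603 when mitochondrial and both-strand positions were kept. Leaving out each library in turn gave -0.293 to 0.577 for that share, -0.0289 to 0.178 for the share of positions, and -0.0127 to 0.0920 on the log2 scale for reads per position, so each sign rests on single libraries. The 22 position calls over the table became 0 with DESeq2 (14 at an unadjusted p below 0.05), 0 without the filter, 0 with each library left out, 0 with the replicate block, and 14 with listed totals without TMM, against 29 with equal library sizes. Gene calls over the table were 0 with edgeR and 1 with DESeq2. Calls at non-coding RNA were 0 in the gene and region fits and in the position fits that tested any, which were those without the filter (354 tested) and with a library left out (23 to 61 tested). The other position fits tested no non-coding position and say nothing of them. The deviations of same-numbered libraries had a weak correlation of -0.103 over 928 genes, which was not tested and shows no pairing. A crossed replicate block was added after seeing the data, and it too gave 0 calls. Of 181 log2 values of the 20 tested genes under the alternatives, 28 had the other sign.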
